A study of Mus musculus with 2 samples.

Results

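Genes of the ubiquitin system were followed in mouse tendon cells exposed to shear, by the symbols of their families. The genes were all those whose single symbol in the platform annotation begins with Ube2 (ubiquitin-conjugating enzymes, E2s), with Fbxl, Fbxo or Fbxw and a digit (F-box proteins), with Usp and a digit, or with Otud and a digit (both deubiquitinases). This gave 113 of the 10843 genes with a spot of their own: 29 E2, 42 F-box, 37 USP and 5 OTUD genes. A value was obtained for 111 of them at 6 h, for 112 at 12 h and for 110 on both arrays. The rule itself reads names and no measured value.

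Tenocytes, which are the fibroblasts of tendon, came from flexor tendon and underwent shear lasting 6 h or 12 h. The Cy5 channel of a spotted array held the sheared cells' RNA and the Cy3 channel that of controls from the same hour, with 1 array per time point and no dye swap. The labels call both RNAs of the 6 h array pooled, give a speed of 50 rpm for the 12 h shear alone, and name no strain, age, genotype or clone. All values below are log2 ratios, likely of sheared over control cells, with each array's median over all spots set to 0, and a gene's value is the median of its probes. If the ratio ran the other way, higher would read lower throughout, and the base of 2 is assumed. With no replicate array no difference could be tested, and "higher" and "lower" describe these arrays; a gene is counted as higher or lower from 2-fold, a log2 ratio of 1. Probes of the same gene scattered with a pooled SD of 0.738 log2 at 6 h (5396 genes) and 0.855 at 12 h (5579 genes), which is the only error available. The 6 h array had 39776 measured spots and the 12 h array 41717. Of 13 tendon markers, 8 had a value, with medians of 0.07 at 6 h and -0.07 at 12 h. A ratio does not show whether a marker is present, so the cell type could not be checked by level. Markers of other cells had medians of 0.42 and 0.80 for leukocytes (6 genes), -0.45 and -0.61 for endothelium (4), 0.26 and 0.19 for skeletal muscle (4), -1.88 and -0.73 for cartilage and bone (2) and -0.815 and -0.41 for epithelium (5), and their part in the results was not tested.

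Ubiquitin is a small protein that is attached to other proteins in steps. An E1 enzyme activates it, an E2 carries it on a cysteine, and an E3 ligase brings the E2 to the target. F-box proteins are the parts of SCF ligases (Skp1, Cul1, Rbx1 and an F-box protein) that pick the target, and deubiquitinases such as the USP and OTUD enzymes cut ubiquitin off again. The system marks proteins for the proteasome, and other chain types act in DNA repair, signalling and membrane traffic. In tendon cells it is part of the turnover of signalling proteins and of damaged proteins.

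To show the regulatory sequence of members at both ends of the range, the promoters of 2 high E2 genes and 2 low deubiquitinase genes are printed 5′ to 3′ on the gene's strand, from RefSeq on GRCm38.p6; each window is 300 bases around the start. They are the highest and lowest members with 2 or more probes on both arrays, all probes on one side of 0 and a single listed promoter. Capitals mark TGACG, the core of the cyclic AMP response element, and TATAAA, the TATA box, on either strand. The windows lie at chr7:4812291-4812590 (minus strand) for Ube2s, chrX:36874045-36874344 (plus) for Ube2a, chr4:106315963-106316262 (plus) for Usp24 and chr8:79639426-79639725 (plus) for Otud4.
Ube2s: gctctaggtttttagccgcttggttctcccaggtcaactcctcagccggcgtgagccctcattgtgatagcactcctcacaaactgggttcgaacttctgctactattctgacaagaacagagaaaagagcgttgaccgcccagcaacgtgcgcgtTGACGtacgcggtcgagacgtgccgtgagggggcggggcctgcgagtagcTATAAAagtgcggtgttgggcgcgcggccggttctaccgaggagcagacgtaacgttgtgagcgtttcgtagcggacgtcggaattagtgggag
Ube2a: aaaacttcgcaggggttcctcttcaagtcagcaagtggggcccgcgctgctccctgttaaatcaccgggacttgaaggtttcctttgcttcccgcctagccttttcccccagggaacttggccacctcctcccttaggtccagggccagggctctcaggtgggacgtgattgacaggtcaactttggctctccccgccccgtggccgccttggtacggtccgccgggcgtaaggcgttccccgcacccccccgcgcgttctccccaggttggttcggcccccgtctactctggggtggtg
Usp24: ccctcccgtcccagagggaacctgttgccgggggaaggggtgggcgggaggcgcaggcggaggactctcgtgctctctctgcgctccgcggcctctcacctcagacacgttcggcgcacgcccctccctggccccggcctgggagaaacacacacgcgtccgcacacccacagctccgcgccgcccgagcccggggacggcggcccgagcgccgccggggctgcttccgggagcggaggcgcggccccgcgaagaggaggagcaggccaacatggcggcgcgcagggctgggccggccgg
Otud4: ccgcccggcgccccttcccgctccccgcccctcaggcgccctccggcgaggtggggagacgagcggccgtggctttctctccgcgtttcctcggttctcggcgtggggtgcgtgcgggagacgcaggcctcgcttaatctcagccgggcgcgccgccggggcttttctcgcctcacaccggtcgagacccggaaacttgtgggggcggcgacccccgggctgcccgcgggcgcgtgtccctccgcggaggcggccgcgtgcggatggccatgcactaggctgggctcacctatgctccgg
The Ube2s window held 1 TGACG and 1 TATAAA, and the other windows held neither. The dinucleotide CG occurred 30 times in the Ube2s window and 20 times in that of Ube2a, and 39 and 43 times in those of Usp24 and Otud4.

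The E2 class stood above the other classes on both arrays. The E2 genes had a median of 0.36 at 6 h (1.28-fold higher) and 0.42 at 12 h (1.34-fold higher), against medians of -0.11 and -0.14 over all genes. The F-box genes had medians of -0.48 and -0.24, and the USP genes had medians of -0.415 and -0.64. The 5 OTUD genes had medians of 0.03 and -0.73. The E2 median lay 0.77 log2 above that of the other 3 classes together at 6 h and 0.90 above it at 12 h. Subtracting 1 constant per array cannot change this gap, and with blocks of spots centred singly it was 0.81 and 0.86. The sign of the E2 median at 12 h does depend on the centring: without centring that median was -0.056, and the 6 h median was 0.036.

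**Figure D1:**
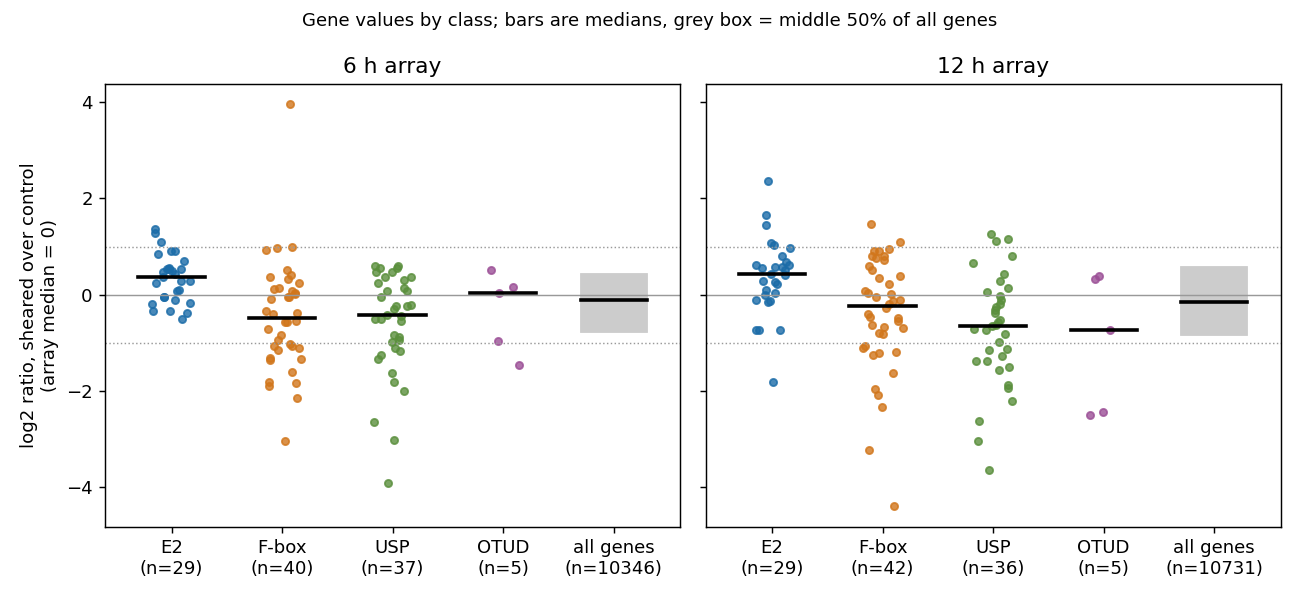
Log2 ratios of sheared over control cells for each member gene (points) by class, at 6 h and 12 h, with class medians as bars; the grey box is the middle 50% of all genes, and dotted lines mark 2-fold. The E2 points lie mostly above 0, with medians of 0.36 and 0.42, and the tails below -1 are mostly F-box and USP genes.

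The counts differed more among low values than among high ones. At 6 h, 3 of 29 E2 genes were at least 2-fold higher, or 10.3%, where 6.2% of all genes were, and at 12 h 5 were, or 17.2%, where 14.5% of all genes were. No E2 gene was 2-fold lower at 6 h, where 18.8% of all genes were, and 1 was at 12 h, where 20.5% of all genes were. Without centring no E2 gene was lower at 6 h and 4 were at 12 h, where 28% and 35% of all genes were. Among F-box genes 14 of 40 (35.0%) were 2-fold lower at 6 h and 11 of 42 (26.2%) at 12 h. Among USP genes these counts were 10 of 37 (27.0%) and 13 of 36 (36.1%). High values were few outside the E2 class: 1 F-box and no USP gene at 6 h, and 2 F-box and 3 USP genes at 12 h. No OTUD gene was 2-fold higher, while 1 was lower at 6 h and 2 were at 12 h. Over all members, 4 of 111 genes were higher (3.60%) and 25 lower (22.5%) at 6 h, where 6.2% and 18.8% of all genes were. At 12 h 10 of 112 were higher (8.93%) and 27 lower (24.1%), where 14.5% and 20.5% of all genes were. Without centring 2 were higher and 33 lower at 6 h, where 2.38% and 28% of all genes were, and 2 were higher and 45 lower at 12 h, where 6.91% and 35% of all genes were. From 1.5-fold, 7 E2 genes were higher at 6 h and 11 at 12 h, where 18.2% and 24.4% of all genes were. None was 1.5-fold lower at 6 h and 4 were at 12 h, where 31.3% and 33.1% of all genes were. At 3-fold, 1 of 111 members was higher and 12 were lower at 6 h, where 1.3% and 8.65% of all genes were, and 2 of 112 were higher and 15 lower at 12 h, where 5.74% and 9.74% were. Each array is 1 hybridisation, so these shares have no replicate check.

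Among the E2s, 2 of 29 (6.90%), Ube2s and Ube2g2, were at least 2-fold higher on both arrays, where 4.34% of all genes were, and none was 2-fold lower on both. Ube2s extends the ubiquitin chains that the anaphase-promoting complex builds on its targets in mitosis. Its 3 probes read 0.805, 1.497 and 1.36 at 6 h and 2.39, 2.37 and 2.16 at 12 h, a median of 1.36 and then 2.37 (5.17-fold higher), the highest E2 value on each array. Ube2g2 serves the ligases that remove misfolded proteins from the endoplasmic reticulum. Its 2 probes read 1.05 and 1.15 at 6 h and 1.33 and 1.56 at 12 h. The Ube2g2 value at 6 h fell below 2-fold with blocks of spots centred singly (0.95). Without centring it was below 2-fold on both arrays (0.77 and 0.97). For both genes the 12 h probes all lay above the 6 h probes. The partner of Ube2s, Ube2c, which starts the chains of the same complex, read close to 0: its 2 probes stood at -0.21 and -0.16 at 6 h and at 0.25 and 0.20 at 12 h.

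Ube2a and Ube2b, close paralogs that put ubiquitin on the replication clamp PCNA and on histone H2B, had positive values for every probe. The 3 probes of Ube2a read 1.11, 0.70 and 0.71 at 6 h and 1.23, 1.66 and 1.78 at 12 h. The 6 probes of Ube2b ran from 0.54 to 1.32 at 6 h and from 0.89 to 1.28 at 12 h, with medians of 0.90 and 1.07. Ube2n, which with Ube2v1 or Ube2v2 builds the non-degradative chains of repair and inflammatory signalling, stood at 0.545 and 1.04. One of its 3 probes read 1.53 at 6 h but -1.20 at 12 h, while the other probes read 0.505 and 0.545, then 1.04 and 1.04; the mean of its probes at 12 h was 0.29. Its inactive partner subunits stood at 0.24 and 0.97 (Ube2v1) and at 0.09 and 0.28 (Ube2v2), and the 12 h value of Ube2v2 hides 1 of 5 probes at -3.52. Ube2t, the E2 of the Fanconi anaemia repair pathway, stood at -0.50 and -0.72 on 1 probe.

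Among E2s that work with many ligases, the probes of Ube2l3 lay on one side of 0, and those of Ube2d3, Ube2d2a and Ube2e3 did not. All 9 probes of Ube2l3, which serves HECT and RBR ligases such as parkin, were positive, from 0.31 to 0.96 at 6 h and from 0.44 to 1.09 at 12 h. Ube2d3 stood at 0.47 and 0.09 over 8 probes and its near-identical relative Ube2d2a at 0.36 and -0.01 over 6, so both read lower at 12 h. Transcripts of Ube2d2a, Ube2d2b, Ube2d3 and the pseudogene Ube2d-ps can hybridise to each other's probes. Ube2e1 stood at 1.28 at 6 h, the mean of probes at 2.35 and 0.21, and at 0.62 on 1 probe at 12 h, and its relative Ube2e3 stood at 0.29 and 0.42. Ube2f, which carries the ubiquitin-like protein NEDD8 onto cullins, stood at 0.48 and 0.59. Of its 8 probes, 7 were positive on both arrays and 1 read -1.04 and -0.84.

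Both E2s anchored in the membrane of the endoplasmic reticulum lay above 0. Ube2j1 stood at 0.91 and 0.62 and Ube2j2 at 0.55 and 0.42, with every probe positive. Ube2g1, which extends chains on cullin ligase targets, was the only E2 at least 2-fold lower on a centred array. Its probes read -0.46 and -0.23 at 6 h and -2.06 and -1.56 at 12 h. For this gene 12 h minus 6 h was -1.47 log2, the lowest such difference among the E2s. Without centring, 4 E2 genes were 2-fold lower at 12 h. Ube2k stood at -0.17 and 0.03, but its 4 probes formed pairs of opposite sign, with 0.77 and 0.47 against -0.82 and -1.59 at 6 h, and 1.23 and 0.85 against -0.78 and -1.36 at 12 h. Ube2r2, which works with SCF ligases, stood at -0.04 and -0.12 with 1 of 5 probes at 1.19 and 1.63. The large E2 and ligase in one chain, Ube2o, stood at -0.04 and -0.12 on 1 probe. Of the remaining 8 genes of the symbol pattern, values ran from -0.37 to 0.84 at 6 h and from -0.73 to 0.67 at 12 h. They include the pseudogene Ube2d-ps and Ube2cbp, which encodes an E2-binding protein, and both are counted in the E2 class throughout.

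**Figure D2:**
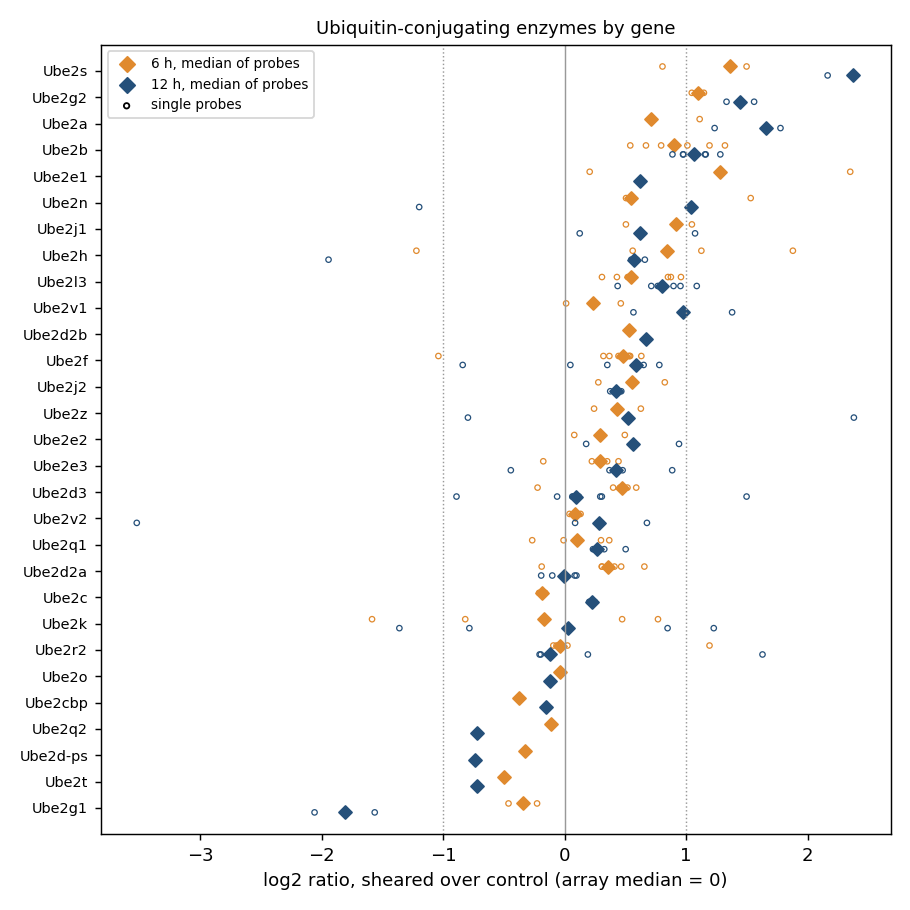
Log2 ratio of sheared over control cells for each of the 29 E2 genes, ordered by the mean of both arrays; diamonds are gene values at 6 h (orange) and 12 h (blue), open circles are single probes, and dotted lines mark 2-fold. Ube2s, Ube2g2 and Ube2a lead, and Ube2g1 at 12 h (-1.81) is the only gene value below -1.

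F-box proteins choose the targets of SCF ligases, and their types are named by the domain that binds the target. The 11 Fbxl genes (leucine-rich repeats) had medians of -0.37 at 6 h and -0.05 at 12 h. The 20 Fbxo genes measured at 6 h, of other domains, had a median of -0.22, and the 21 measured at 12 h had -0.28. The Fbxw genes (WD40 repeats) had the lowest medians, -1.11 over 9 genes and -0.70 over 10. Of these, 6 were at least 2-fold lower at 6 h, where 18.8% of all genes were, and 5 at 12 h, where 20.5% were.

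At least 2-fold lower on both arrays were 7 of 40 F-box genes (17.5%), where 9.8% of all genes were, and no F-box gene was 2-fold higher on both. Among the 7, Fbxl17, which clears wrongly paired BTB proteins, had 2 concordant probes, at -1.26 and -1.47 at 6 h and at -2.71 and -1.43 at 12 h. Fbxo11, a ligase subunit for the repressor Bcl6, had probes at -0.99 and -1.14, then at -2.13 and -0.31. Fbxl7 stood at -1.84 and -1.63, Fbxl18 at -1.61 and -1.25, and Fbxw4 at -1.11 and -1.96, each on 1 probe. Fbxw22 stood at -1.34 and -4.40 on 1 probe, the lowest member value at 12 h. Fbxw27 stood at -1.82, from probes at -0.34 and -3.29, and at -2.34 on 1 probe.

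Fbxw22, Fbxw24 and Fbxw27 are neighbours in sequence family and in place. They lie on chromosome 9 of GRCm38.p6, at 109378400 to 109404294, 109601116 to 109626059 and 109765977 to 109790660. Fbxw24 had no value at 6 h and stood at -3.23 at 12 h on 1 probe. All 3 of these genes were at least 2-fold lower at 12 h, but Fbxw22 and Fbxw27 were named for being 2-fold lower on both arrays. The count was thus set by the choice of genes and cannot be read against the 20.5% of all genes that were lower. Each of these 12 h values rests on 1 probe, and Fbxw24 was added to the group after its value was seen. Similar transcripts of one cluster can share signal. Fbxw17, on chromosome 13, had a median of -1.90 at 6 h from probes at -0.025 and -3.77, and of -0.20 at 12 h.

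Of the F-box genes chosen for a known role, Fbxw7, Fbxl5, Fbxo6 and Fbxl22 lay above 0 on both arrays. Below 0 on both lay Fbxw11, Fbxo5, Fbxo32 and Fbxl20. The values of Fbxo6 and Fbxl22 are given further below. Fbxw7, which marks cyclin E, Myc and Notch for degradation, stood at 0.01 and 0.22, with its 2 probes on opposite sides of 0 on each array. Fbxw11, one of the paired beta-TrCP ligase subunits that act on beta-catenin and the NF-kappa-B inhibitor, stood at -0.56 and -1.20. The other beta-TrCP gene, Btrc, stood at -1.08 and -1.12 over 5 probes, with probe SDs of 1.32 and 1.24. Fbxo5, an inhibitor of the anaphase-promoting complex, stood at -0.56 and -0.48, and Fbxo32, the muscle atrophy gene atrogin-1, at -0.56 and -1.06 on 1 probe. Fbxl5, the iron-sensing subunit, stood at 0.42 and 0.515 on 1 probe. Fbxl20 stood at -0.37 and -0.41, each from 1 positive and 1 negative probe.

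The highest F-box genes with several probes lay below 2-fold. Fbxo9 stood at 0.93 and 0.76, with probes at 1.74 and 0.12 at 6 h and at 1.19 and 0.335 at 12 h. Fbxo6, which binds glycoproteins that leave the endoplasmic reticulum for degradation, stood at 0.37 and 0.80. Fbxo7, a gene of inherited parkinsonism in humans, stood at 0.51 and 0.60. All probes of these 3 genes were positive. Values of at least 2-fold higher came from single probes: Fbxl22, known from the sarcomeres of heart muscle, at 3.97 at 6 h, and Fbxw5 at 1.10 and Fbxo42 at 1.47 at 12 h. Fbxw5, Fbxo42 and the low Fbxw24 are named after their values were seen. The other 19 F-box genes ran from -1.315 to 0.99 at 6 h and from -1.11 to 0.96 at 12 h. Of these, 4 of 18 (22.2%) were at least 2-fold lower at 6 h and 1 of 19 (5.26%) at 12 h, where 18.8% and 20.5% of all genes were. Those 2-fold lower on both arrays had already been named, so these counts do not stand for the class.

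**Figure D3:**
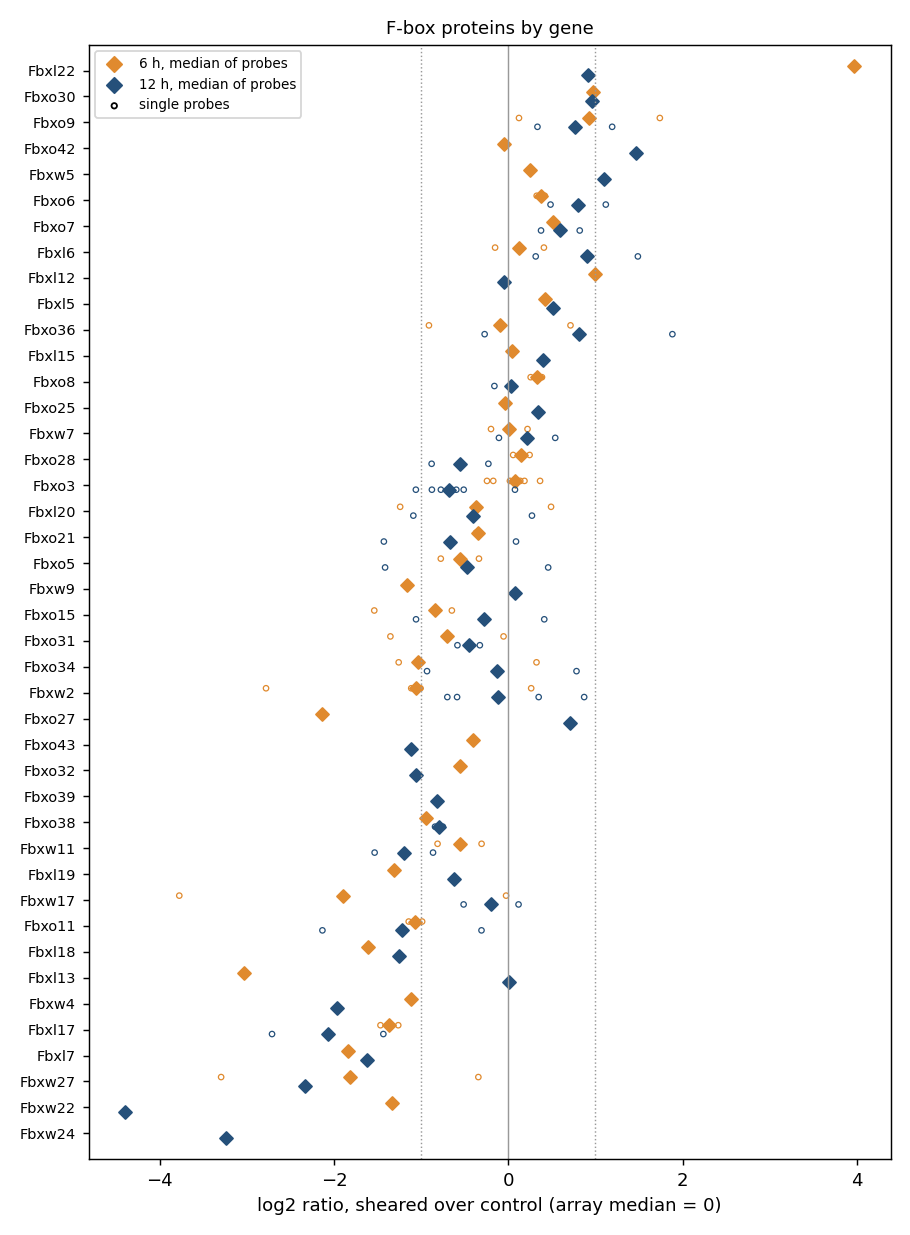
Log2 ratio of sheared over control cells for each of the 42 F-box genes, ordered by the mean of the arrays with a value; diamonds are gene values at 6 h (orange) and 12 h (blue), open circles are single probes, and dotted lines mark 2-fold. Most of the extreme values, such as Fbxl22 at 3.97 and Fbxw22 at -4.40, rest on 1 probe.

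Several USP deubiquitinases read low on many probes. Usp9x, a very large enzyme that stabilises many signalling and survival proteins, had 6 probes between -2.23 and -1.45 at 6 h and between -3.375 and -2.52 at 12 h. Its medians were -1.99 at 6 h and -3.03 at 12 h, or 8.15-fold lower at 12 h, and no probe of the 12 h array overlapped those of the 6 h array. Usp24, another very large USP, had 4 probes at -3.16, -1.75, -1.87 and -1.77 at 6 h and at -0.79, -2.96, -2.29 and -3.74 at 12 h. Usp37, which acts on cyclin A, had 1 probe at -2.64 at 6 h and probes at -4.00 and -3.28 at 12 h. All probes of these 3 genes that carry 1 symbol were negative on both arrays. With spots of several symbols kept, the value of Usp37 at 6 h was -1.29.

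In all, 8 of 36 USP genes were at least 2-fold lower on both arrays, or 22.2%, where 9.8% of all genes were. Besides Usp9x, Usp24 and Usp37 these were Usp34, Usp40, Usp42, Usp45 and Usp48. Usp48 had probes from -1.61 to -0.15 at 6 h and from -1.54 to -1.255 at 12 h. Usp42 had medians of -1.34 and -1.88 over 3 negative probes and Usp40 had -1.11 and -1.27 over 2. Usp34, which acts on the Wnt pathway scaffold axin, stood at -1.62 and -2.21, but 1 of its 3 probes read 0.32 and 2.23, and the mean of its probes at 12 h was -1.14. Usp45 stood at -3.91 and -1.498 on 1 probe.

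Of the 10 USPs chosen for a known role and measured on both arrays, Usp9x among them, 8 read lower at 12 h than at 6 h. So did 25 of all 36 USP genes and 43.4% of all genes. For Usp8, Usp1 and Usp28 the difference was only -0.09, -0.09 and -0.10 log2, well inside the scatter of probes. Usp7, which stabilises Mdm2 and p53, had probes at 0.35, -0.24 and -0.77 at 6 h and at -1.14, -1.60 and -1.56 at 12 h. The probes of the 2 arrays did not overlap, and the 12 h value minus the 6 h value was -1.325 log2, the lowest such difference among the USPs. Usp15, which acts on TGF-beta receptors and Smads, stood at -0.29 and -0.82 over 4 probes. Usp8, which sorts growth factor receptors at endosomes, stood at -0.43 and -0.52, and Usp1, which removes ubiquitin from PCNA, at -0.55 and -0.65. Usp28 stood at -0.88 and -0.98 on 1 probe. Its paralog Usp25 stood at -1.17 at 6 h, from probes at -1.17 and -1.16, and at -0.31 at 12 h, from probes at 1.19 and -1.81. Usp10 stood at -0.20 and -0.735 with probes as far apart as 1.77 and -4.08 at 12 h. Usp22 of the SAGA complex stood at 0.25 and -0.02 and Usp5, which recycles free chains, at 0.09 and 0.42, each on 1 probe. Usp27x, a single-exon relative of Usp22, stood at 0.48 and -0.63 on 1 probe.

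By the mean of both arrays, the highest USPs with 2 or more probes were Usp19, Usp39 and Usp2, and all 3 passed 2-fold at 12 h alone. Usp19, an enzyme with a form anchored in the endoplasmic reticulum, had probes at 0.79 and 0.40 at 6 h and at 1.54 and 0.97 at 12 h. Usp39, a splicing factor without deubiquitinase activity, had probes at 0.50 and 0.61, then at 0.905 and 1.42. The probes of Usp2, a gene under circadian control, read 0.28, 1.13 and 0.36 at 6 h, but -1.16, 2.33 and 1.125 at 12 h. Usp13, named after its value was seen, was measured at 6 h alone, at -3.02 on 1 probe. The other 15 USP genes ran from -0.985 to 0.60 at 6 h and from -1.935 to 0.80 at 12 h. None of them was 2-fold lower at 6 h and 4 were at 12 h (26.7%), where 18.8% and 20.5% of all genes were. Genes 2-fold lower on both arrays had already been named, so these counts do not stand for the class.

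The 5 OTUD genes split into 2 low genes, 2 genes near 0 and 1 between. Otud4 had probes at -1.195 and -0.74 at 6 h and at -2.22 and -2.78 at 12 h, with medians of -0.97 and -2.50. Otud7b, known for cutting the chain type that Ube2s builds, stood at -1.47 and -2.445 on 1 probe. Otud1 stood at 0.03 and -0.73 on 1 probe. Otud5, a regulator of interferon production, stood at 0.155 and 0.38 over 3 probes, and Otud6b at 0.51 and 0.32 over 5. With 5 genes the class median follows its middle member: over the 3 genes with 2 or more probes it was 0.32 at 12 h, against -0.73 over all 5.

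**Figure D4:**
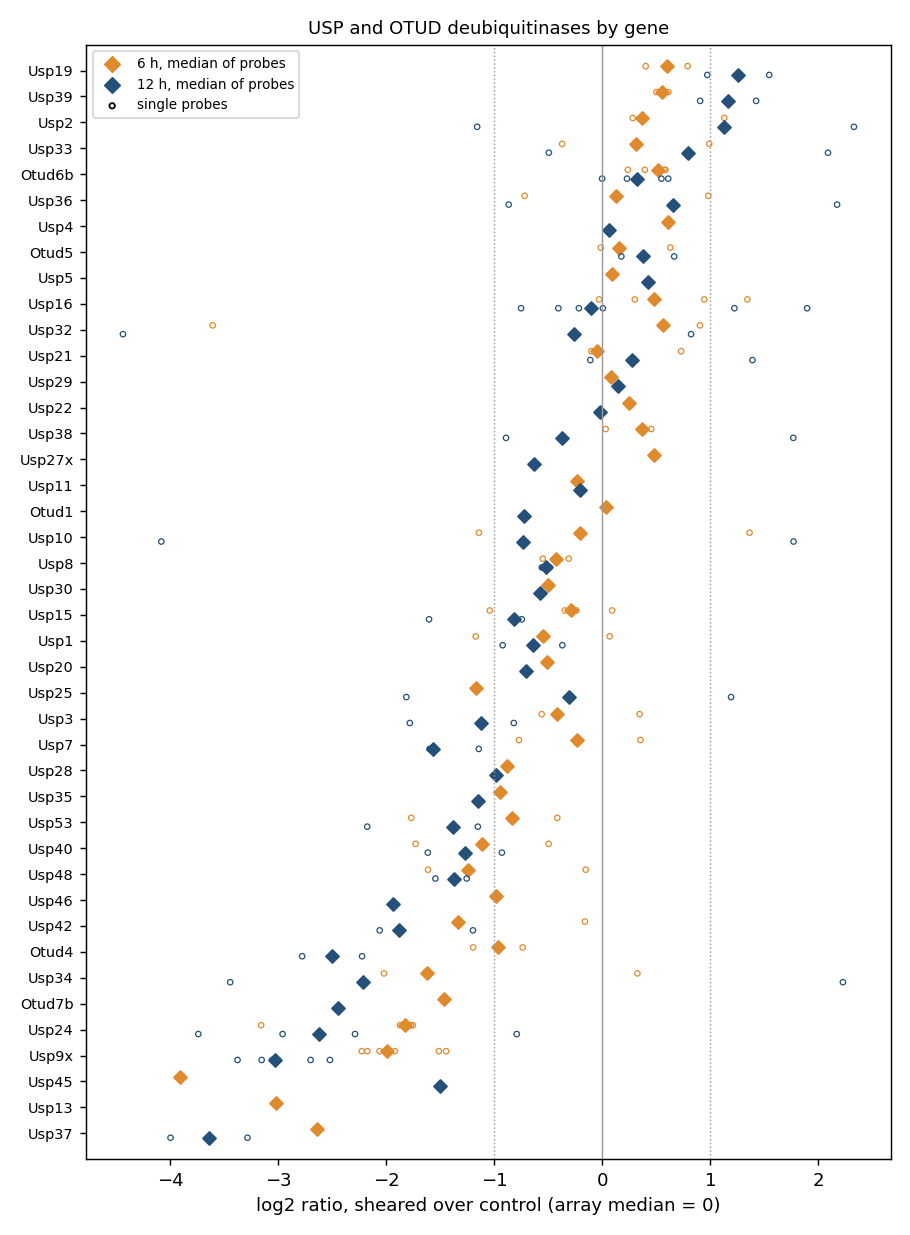
Log2 ratio of sheared over control cells for the 37 USP and 5 OTUD genes, ordered by the mean of the arrays with a value; diamonds are gene values at 6 h (orange) and 12 h (blue), open circles are single probes, and dotted lines mark 2-fold. Usp9x stands out by 6 close probes per array, with medians of -1.99 and -3.03.

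The same members tended to be high or low on both arrays. Of 110 genes on both arrays 91 had the same sign, or 82.7%, close to the 80.5% of all genes. Across these 110 genes Pearson's r was 0.68 and Spearman's rho was 0.77, and across all 10286 genes they were 0.66 and 0.74. These are correlations across genes of 2 hybridisations made on the same array design, and genes are not independent replicates. By class the same sign was found for 26 of 29 E2, 31 of 40 F-box, 30 of 36 USP and 4 of 5 OTUD genes. No member was 2-fold higher on one array and 2-fold lower on the other, as 0.282% of all genes were.

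Between the arrays the classes moved by different amounts. The median of 12 h minus 6 h was 0.14 for E2 and 0.12 for F-box genes, near the 0.12 of all genes, and -0.20 for USP and -0.76 for OTUD genes. Lower at 12 h than at 6 h were 25 of 36 USP genes (69.4%) and 4 of 5 OTUD genes, where 43.4% of all genes were. The 12 of 29 E2 genes (41.4%) and 17 of 40 F-box genes (42.5%) that read lower were close to that share. At least 1 log2 higher at 12 h were 7 of 110 members (6.36%), where 11.5% of all genes were, and at least 1 log2 lower were 9 (8.18%), where 7.35% of all genes were. Fbxl13 had the highest difference, 3.04, with -3.03 at 6 h and 0.01 at 12 h, and Fbxw22 the lowest, -3.06. Fbxl22 had a difference of -3.06 as well and stood at 0.91 at 12 h, and Usp45 had a difference of 2.41. Each of these 4 genes rests on 1 probe.

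**Figure D5:**
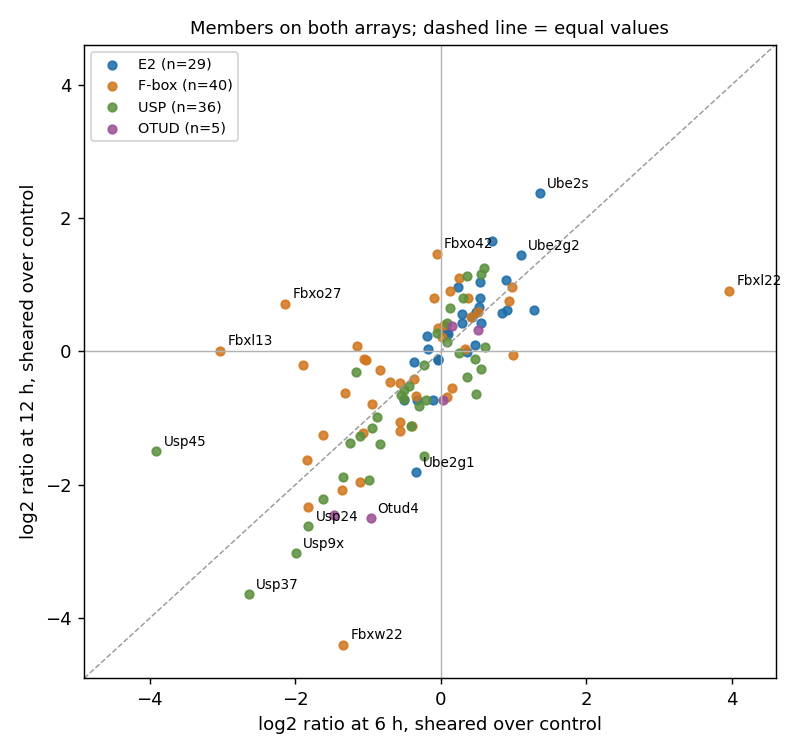
Log2 ratio at 12 h against that at 6 h for the 110 members on both arrays, coloured by class; the dashed line marks equal values. Ube2s lies at the upper right, with 1.36 and 2.37, and Usp37, Usp9x and Usp24 lie at the lower left and below the line.

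The partners of these enzymes were read from lists of other genes of the pathway. Of the listed SCF and cullin genes 14 had a value on an array. None was 2-fold higher and 1 lower at 6 h, where 6.2% and 18.8% of all genes were. At 12 h 3 were higher and 5 lower, where 14.5% and 20.5% of all genes were. The small subunits were the 3 higher ones: Skp1, the adaptor of F-box proteins, stood at 0.85 and 1.30 over 7 probes, and the RING subunits Rbx1 and Rnf7 stood at 0.57 and 1.15 and at 0.99 and 1.61. The 5 lower ones at 12 h were Skp2 at -2.08, Cul1, Btrc at -1.12, Cul2 at -1.07 and Ccnf at -1.02. Of these, Skp2, Btrc and Ccnf encode F-box proteins whose symbols fall outside the pattern. Btrc was also the 1 lower gene at 6 h, at -1.08. The scaffold Cul1 stood at -0.31 and -1.185 over 5 probes, with probe SDs of 0.205 and 0.33. Of 9 listed E1 and related genes 4 had a value: Uba3, Sae1, Nae1 and Atg7. They lay between 0.11 and 0.48 at 6 h and between -0.48 and 0.45 at 12 h. No value was available for Uba1 or Uba6, the E1 enzymes of ubiquitin itself, or for the 4 listed ubiquitin genes. The step that activates ubiquitin was thus not read.

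Genes listed as deubiquitinases of other families were read beside the USP class, without a test of the difference. Over 15 such genes the median was 0.42 at 6 h and 0.07 at 12 h, with none past 2-fold at 6 h and 5 higher and 1 lower at 12 h, where 14.5% of all genes were higher and 20.5% lower. The 5 were Uchl1 at 1.47, Uchl3 at 1.35, Otub1 at 1.5015, Cops5 at 1.18 and Eif3h at 1.498, and the 1 lower gene was Zranb1 at -1.20. Cops5 removes NEDD8 from cullins and Eif3h is a subunit of a translation initiation factor, so neither is a typical deubiquitinase. Psmd14 is counted both in this list and among the Psm genes that follow. The proteasome itself stood far above the members. Over 37 genes of the Psm symbol pattern, among them Psmc3ip, which encodes no proteasome subunit, the median was 0.965 at 6 h and 1.38 at 12 h. Of these 16 were 2-fold higher at 6 h, where 6.2% of all genes were, and 26 at 12 h, where 14.5% were, and none was lower.

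The values went with the size of the gene, across members and across the array. The median span from first to last base on GRCm38.p6 was 30.5 kb for the E2, 49.4 kb for the USP and 30.4 kb for the F-box genes measured at 6 h, against 21.7 kb for all genes. Spearman's rho of value against span was -0.53 at 6 h and -0.56 at 12 h across the 37 and 36 USP genes. It was -0.27 and -0.35 across the 29 E2 genes and -0.27 and -0.31 across the F-box genes. Across all genes with a span it was -0.31 (10312 genes) and -0.37 (10692 genes). All points of an array share 1 hybridisation, the span includes introns, and transcript length and abundance were not measured here. The part of transcript length in the class differences was not tested.

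Promoters were found in the RefSeq table for 87 of the 113 members, in 111 windows of 300 bases. The members' windows had a median of 25 CG dinucleotides, against 19 over the genes of the arrays and 7 over all promoters. By class the medians were 29 for E2, 18 for F-box, 31 for USP and 31 for OTUD windows, so the F-box windows lay below the 19 of the arrays' genes. The antioxidant response element TGACNNNGC, searched on both strands, was found in 20.7% of member windows, 14.0% of those of the arrays' genes and 12.4% of all promoters. The core TGACG was found in 34.2%, 29.4% and 20.8%, and 7 member windows (6.31%) held both in one stretch as TGACGNNGC, as did 3.53% of the windows of the arrays' genes and 2.16% of all promoters. The heat shock element GAANNTTC was found in 1 member window, or 0.90%, against 5.73% and 7.86%. TATAAA was found in 5.41%, 8.76% and 13.6%. By class, TGACNNNGC was found in 18.2% of E2, 17.8% of F-box and 27.6% of USP windows, and in 1 of 4 OTUD windows. For TGACG these were 30.3%, 28.9% and 44.8%, and 2 of 4 OTUD windows. The differences between classes were not tested. A match is a run of letters and no measured site.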

How the data were processed

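The authors deposited a log2 ratio per spot (base assumed) for 42624 spots on each of 2 two-colour arrays of mouse tendon cells. Per the labels, Cy3 carried control RNA and Cy5 sheared RNA. The scanner, background correction, normalization and filters were not given in the sources used here; spot intensities were not used. The deposited medians were -0.323 at 6 h and -0.479 at 12 h, with 2848 and 907 spots missing. Each array was centred on its median. GEO's platform annotation gave the gene names: 21701 carried 1 symbol and were used, 1124 carried several. Members had 268 spots. Another 4 symbols of the pattern stood only on spots with several symbols.

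Each gene was summarised by its probes' median. The number of arrays limits the precision, and no test could be made. Genes named in the text were those 2-fold on both arrays, the 3 highest and 3 lowest of each class with 2 or more probes on both arrays, the 2 largest changes each way between arrays, all OTUD genes and genes chosen for their role; others are said to be named after their values were seen. The members, lists and motifs were chosen with earlier results of these data known. Alternatives were no centring, centring of 48 blocks of 900 spot numbers, the mean of probes, and 2 or more probes. Others were only genes found on the 2 arrays, also spots of several symbols, 1 scale for both arrays, and thresholds of 1.5-fold and 3-fold. The blocks are runs of spot numbers and were not checked against a print layout. Python 3.11.15, pandas 2.3.3 and SciPy 1.17.1 were used.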

Additional observations from a re-analysis of the deposited data

Results flagged for a closer look

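Fbxo27, which encodes a glycoprotein-binding F-box protein, was the only member on both arrays that was at least 1.5-fold from 0 on opposite sides at the 2 times. It stood at -2.14 at 6 h and at 0.71 at 12 h, each on 1 probe. The difference between the time points was not tested.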

How the results depend on the processing

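With values as deposited and no centring, the E2 median was 0.036 at 6 h and turned to -0.056 at 12 h, because each array's median is then not subtracted. The F-box medians were then -0.80 and -0.72, the USP medians -0.74 and -1.12 and the OTUD median at 12 h -1.205. Without centring 2 members were 2-fold higher on each array, where 2.38% and 6.91% of all genes were. At 12 h 45 were lower, where 35% of all genes were. With 2 or more probes per gene, fewer genes remained: 13 members were 2-fold lower at 6 h and 15 at 12 h, and the OTUD median at 12 h was 0.32. With both arrays on one scale, 9 members were 2-fold higher at 6 h. The shares of all genes were not computed for either of these settings, so their counts have no background beside them. At 1.5-fold 13 members were higher at 6 h, where 18.2% of all genes were. At 12 h 26 were higher and 42 lower, where 24.4% and 33.1% of all genes were. At 3-fold 1 was higher and 12 lower at 6 h, where 1.3% and 8.65% of all genes were. At 12 h 2 were higher and 15 lower at 3-fold, where 5.74% and 9.74% were. The gap of the E2 median to the other classes ran from 0.71 to 0.87 at 6 h and from 0.81 to 0.97 at 12 h over the 6 alternatives that can move it; leaving out the centring cannot. No gene named singly among the members and past 2-fold changed sign under an alternative that gave it a value. A call at 2-fold could still be lost, as that of Ube2g2 was without centring. No paired analysis was possible because each time point has 1 array. Signal over background is unknown, so dim spots could not be told apart.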
